A study of Rattus norvegicus with 20 samples.

Results

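Promoter binding of NF-kB p65 was compared between regenerating livers of rats fed ethanol and livers of pair-fed rats on a carbohydrate diet, 6h after partial hepatectomy. The comparison used 8 of the 20 arrays of the series, chosen by diet and time in the sample titles. There were 4 arrays of Ethanol 6h livers and 4 of Carbohydrate 6h livers. All rats were wild-type male Sprague Dawley, 8 to 10 weeks old. Ethanol rats took 36% of their calories from ethanol in a liquid diet for 5 weeks. Carbohydrate rats were littermates pair-fed for as long, with carbohydrate in place of those calories. In both groups a 70% hepatectomy removed the medial and left lateral lobes, and the remnant liver was taken 6h later. The other 12 arrays held the same diets at 1h and at 0h, 3 per diet and time, the 0h tissue being the lobes removed at surgery. The study's design text gives 3 biological replicates per time, while the titles number 4 at 6h. The question, going by the series title, is how chronic ethanol intake alters NF-kB binding to promoters in regenerating liver.

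NF-kB is a family of dimeric transcription factors, and p65 (RelA) is its main activating subunit. Inhibitor proteins of the IkB family hold p65 in the cytoplasm until signals such as tumour necrosis factor release it to bind kappa B sites in promoters of cytokine, survival and antigen presentation genes. In regenerating liver this pathway is known as one of the earliest responses, set off in hepatocytes and Kupffer cells. The tissue was whole liver, so fewer cells of a type with bound p65 and less p65 per cell cannot be told apart. The measurement was chromatin immunoprecipitation with a rabbit polyclonal p65 antibody, read on tiling arrays of promoters (ChIP-chip). Values are log ratios of immunoprecipitated to reference DNA per probe. They are given in log units, because the base of the log is not stated, and positive values mean more p65 signal than the median probe of the array. Promoter signal is the mean over the strongest 500 bp window of each tiled promoter region, chosen over all 20 arrays.

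The 8 arrays did not sort cleanly by diet. Over 14540 promoters, Pearson's r between arrays ranged from 0.44 to 0.62 within Ethanol 6h, from 0.59 to 0.80 within Carbohydrate 6h and from 0.29 to 0.82 between the diets. The closest pair of all was Ethanol replicate 3 with Carbohydrate replicate 1, at r = 0.82. Ethanol replicate 4 was also closest to a Carbohydrate array, replicate 4, at r = 0.63. Array identifiers place Carbohydrate replicate 1 alone in the fourth of 4 array runs, and the other 7 arrays of 6h in the third run. Identifiers also end in an animal number. The 8 numbers are all different, and 1 Ethanol and 1 Carbohydrate animal of 6h also gave a 0h array. Each Ethanol number lies 2 below a Carbohydrate number, but the labels name no pairs. Both matches named above are such neighbours. The other neighbours, Ethanol 1 with Carbohydrate 2 and Ethanol 2 with Carbohydrate 3, had r = 0.41 and 0.42. Ethanol 4 also shared a slide with Carbohydrate 3 and 4. The part of animals or slide in these correlations was not tested. Results are therefore given for all 8 arrays. Calls are also given for the third run alone and for a fit with these neighbouring numbers as a block, below called the block, both chosen after the data had been seen.

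Ethanol arrays carried a flatter signal on average. The SD over probe values was 0.302, 0.300, 0.370 and 0.315 on Ethanol arrays 1 to 4, against 0.433, 0.380, 0.367 and 0.399 on Carbohydrate arrays 1 to 4. Only Ethanol replicate 3 reached into the Carbohydrate range. The difference of means was -0.0728 (two-sided exact permutation p = 0.0571, 70 splits). Without Ethanol replicate 3 the difference of means was -0.0887 (exact permutation p = 0.0286). Leaving out the 1 overlapping array separates the groups fully, so this p is the smallest possible and adds no support. In the third run alone the difference was -0.0601 (exact permutation p = 0.0857, 35 splits). The median promoter signal was 0.18, 0.13, 0.22 and 0.23 on the Ethanol arrays, against 0.23, 0.30, 0.31 and 0.36 on the Carbohydrate arrays. Every Ethanol array lay below every Carbohydrate array, although Ethanol replicate 4 and Carbohydrate replicate 1 were nearly level. This difference of means was -0.11 (exact permutation p = 0.0286, the smallest that 4 against 4 allows). These are 2 of 12 array measures compared, and no p-value was below 0.0286.

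**Figure D1:**
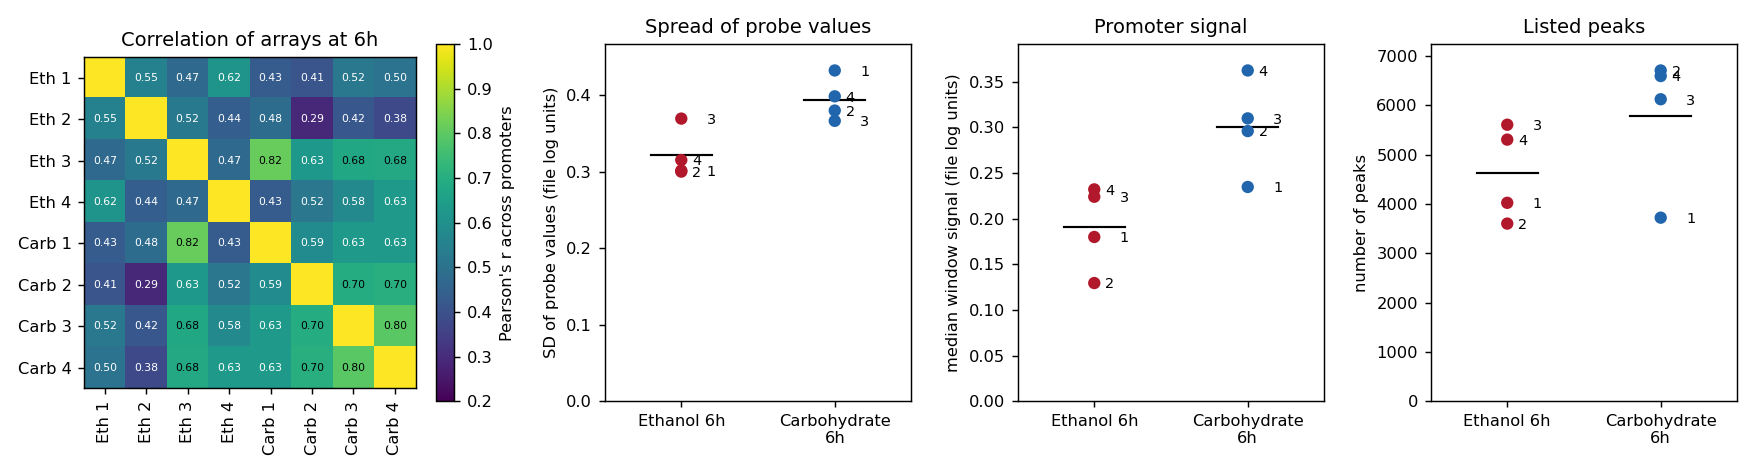
Arrays of 6h compared. The left panel gives Pearson's r across promoters between arrays, with Ethanol 3 and Carbohydrate 1 at 0.82. The other panels give, for each array (points numbered by replicate, bars at group means), the SD of probe values, the median window signal in log units and the number of listed peaks, with Ethanol 6h left of Carbohydrate 6h.

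Listed peaks were fewer on average in ethanol livers, within the spread of the arrays. The authors' lists held 4023, 3602, 5605 and 5303 peaks on the Ethanol arrays, against 3722, 6704, 6121 and 6591 on the Carbohydrate arrays. Carbohydrate replicate 1, the array of the fourth run, had fewer peaks than 3 of the Ethanol arrays. The means were 4633 ± 971 and 5785 ± 1398 (SD, n = 4 each), and the difference was not significant (exact permutation p = 0.20). In the third run alone the difference of means was -1839 (exact permutation p = 0.0571). The share of peaks near gene starts overlapped between the diets. Within 500 bp of the listed start were 23.1% ± 1.5 of the peaks in Ethanol 6h and 22.7% ± 2.3 in Carbohydrate 6h (SD, n = 4 each; exact permutation p = 0.743).

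Averaged over 12137 promoters with 1 gene, p65 signal dipped just upstream of the start on all 8 arrays. The lowest 250 bp bin lay directly before the start on 7 arrays and began 500 bp upstream on Carbohydrate replicate 2. Its value was -0.074, -0.061, -0.067 and -0.084 on the Ethanol arrays, against -0.056, -0.031, -0.068 and -0.14 on the Carbohydrate arrays. The Carbohydrate values enclosed all Ethanol values, so the depth of the dip did not separate the diets.

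**Figure D2:**
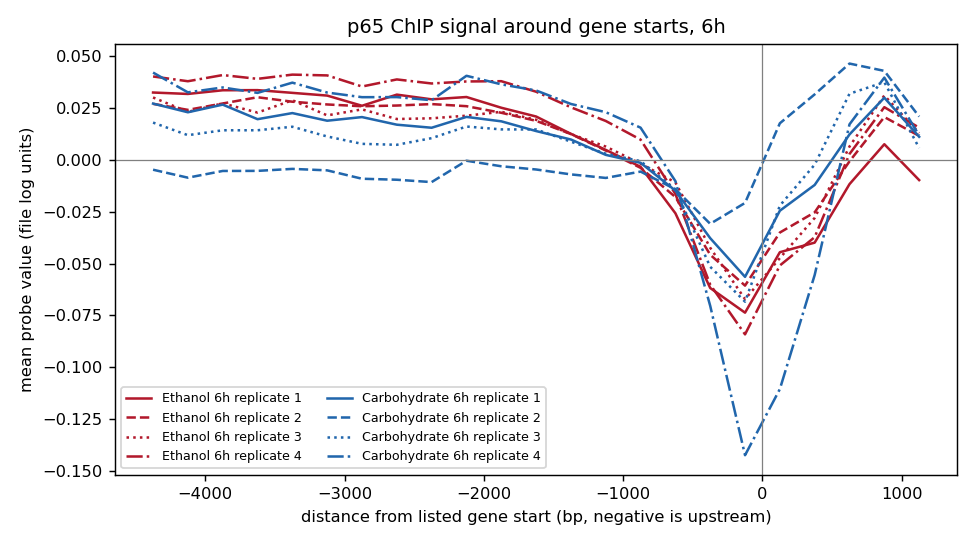
Mean probe value in log units (vertical axis) by distance from the listed gene start in bp (horizontal axis, negative upstream), 1 line per array of 6h. All lines fall to their lowest point close before the start, and the deepest and the shallowest dips are both Carbohydrate arrays.

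Measured in windows, p65 signal at 6h was lower in ethanol livers at most promoters, by a small amount at each. Of 14540 promoters, 11678 (80.3%) had a negative difference (Ethanol 6h minus Carbohydrate 6h) and 2862 a positive one, with a median of -0.11 and a median standard error of 0.12. No promoter passed the test: 0 of 14540 (0.0%) reached an adjusted p under 0.05 in limma over all 20 arrays, and the smallest adjusted p was 0.429. At an unadjusted p under 0.05, 1542 promoters (10.6%) were lower in Ethanol and 48 (0.33%) higher. The lower count was 600 without Ethanol replicate 2, 881 without Ethanol replicate 1 and 845 without Carbohydrate replicate 4. The higher count was 22 without Ethanol replicate 1 or 2, 23 without Carbohydrate replicate 2 and 118 without Ethanol replicate 3. All 4 Ethanol values lay below all 4 Carbohydrate values at 1339 promoters (9.21%), and above them at 44 (0.303%).

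The number of calls depended on which arrays and which spread entered the fit. The 8 arrays fitted without the other times gave 12 lower promoters and none higher. The 7 arrays of the third run alone gave 1036 lower (7.13%) and 12 higher (0.0825%). The block of neighbouring animal numbers gave 1070 lower (7.36%) and 31 higher (0.213%), and of its 1101 calls 762 were also called in the third run. With whole-region means the balance of calls turned: the third run then gave 163 lower (1.12%) and 355 higher (2.44%). The fit of all arrays with region means gave no call, with 396 lower and 337 higher at an unadjusted p under 0.05. The general shift itself moved with the measure. Its median was -0.06 with arrays scaled to the same spread. In place of windows, it was 0.00 with the mean over whole tiled regions and -0.01 with the mean around the listed start. Windows were chosen for high signal over arrays that include these 8, and probe spread was wider on Carbohydrate arrays on average. The part of this in the shift was not tested. The differences below stand beside these medians of all promoters.

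The promoters of smallest unadjusted p among those lower in ethanol livers belonged to genes of varied function. Each of the 6 had an adjusted p of 0.429 in the fit of all arrays and was called with the 8 arrays alone, in the third run and with the block. Cd8a encodes a chain of the CD8 co-receptor, by which cytotoxic T cells read class I molecules. Its window (chr4:104588543-104588945, centred at -1177 bp from the listed start) had 0.20, 0.13, 0.47 and 0.40 log units on Ethanol arrays 1 to 4, against 0.74, 1.06, 0.82 and 0.83 on Carbohydrate arrays 1 to 4. The groups did not overlap, and the difference was -0.56 ± 0.13 (SE, n = 4 each). Its neighbour Cd8b, the partner chain, had 0.26, 0.05, 0.75 and 0.40, against 0.79, 0.70, 0.78 and 1.01, a difference of -0.45 ± 0.16 (SE, n = 4 each). There Ethanol replicate 3 reached the lower Carbohydrate values. Coordinates are those of the deposited files, whose build is not given in the sources used here.

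Pigk encodes the catalytic subunit of the enzyme that attaches GPI anchors to proteins. Its window, 609 bp after the start, had -0.29, -0.28, 0.01 and -0.19 log units in Ethanol 6h, against 0.10, 0.40, 0.41 and 0.44 in Carbohydrate 6h. Carbohydrate replicate 1 sat well below the other 3 of its group, yet above all Ethanol arrays (difference -0.53 ± 0.12, SE, n = 4 each). Nkain4, a membrane protein that interacts with the sodium pump, had -0.09, -0.11, 0.24 and -0.13 in Ethanol 6h, against 0.44, 0.63, 0.56 and 0.46 in Carbohydrate 6h (difference -0.54 ± 0.13, SE, n = 4 each). The shared promoter of Ethe1, a mitochondrial sulfide-oxidising enzyme, and Zfp575 differed by -0.49 ± 0.12 (SE, n = 4 each). That of Ccdc103, a protein of cilia assembly, and FAM187A differed by -0.52 ± 0.13 (SE, n = 4 each). Both of these promoters had no overlap between the diets.

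The widest difference among the calls of the 8-array fit was at Cenpn, a centromere protein needed for chromosome segregation. Its window, 494 bp after the start (chr19:47029531-47029934), had -0.21, -0.57, -0.08 and -0.11 log units in Ethanol 6h, against 0.10, 0.63, 0.43 and 0.53 in Carbohydrate 6h (difference -0.66 ± 0.17, SE, n = 4 each). All Ethanol values were below 0 and all Carbohydrate values above it. Cenpn had a listed peak on 0 of 4 Ethanol arrays and 2 of 4 Carbohydrate arrays. The histone promoter shared by H4c14 and Hist2h3c2 differed by -0.63 ± 0.18, Rin1, a Ras effector, by -0.62 ± 0.19, and Scgb3a1, a secretoglobin, by -0.49 ± 0.14 (SE, n = 4 each). Cenpn, H4c14, Rin1 and Scgb3a1 were singled out after their values had been seen.

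Trim21, an interferon-induced ubiquitin ligase that binds antibodies inside cells, had its window close to the start. The window (chr1:160187332-160187732, centred 129 bp after the start) had 0.09, -0.20, 0.31 and 0.05 log units in Ethanol 6h, against 0.58, 0.54, 0.57 and 0.54 in Carbohydrate 6h. The Carbohydrate arrays were close together and the Ethanol arrays spread widely below them (difference -0.50 ± 0.12, SE, n = 4 each). On the 1 slide that held both diets the difference was -0.51. Its RefSeq promoter is shown because the window reaches it. It runs from 250 bases before to 50 after the start on GRCr8 (chr1:166399322-166399621, minus strand). Capitals mark overlapping matches to the interferon-stimulated response element, searched on both strands as GAAA, any 2 bases and GAAA again, which 3.77% of the 27457 RefSeq promoters hold. The match is a description of the letters, and no kappa B consensus was found in this stretch.
Trim21: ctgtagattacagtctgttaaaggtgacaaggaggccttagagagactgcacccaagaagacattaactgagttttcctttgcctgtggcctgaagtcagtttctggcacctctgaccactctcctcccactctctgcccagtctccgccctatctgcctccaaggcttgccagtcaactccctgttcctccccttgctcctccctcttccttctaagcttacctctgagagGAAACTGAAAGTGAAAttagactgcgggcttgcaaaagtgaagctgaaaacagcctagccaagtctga

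**Figure D3:**
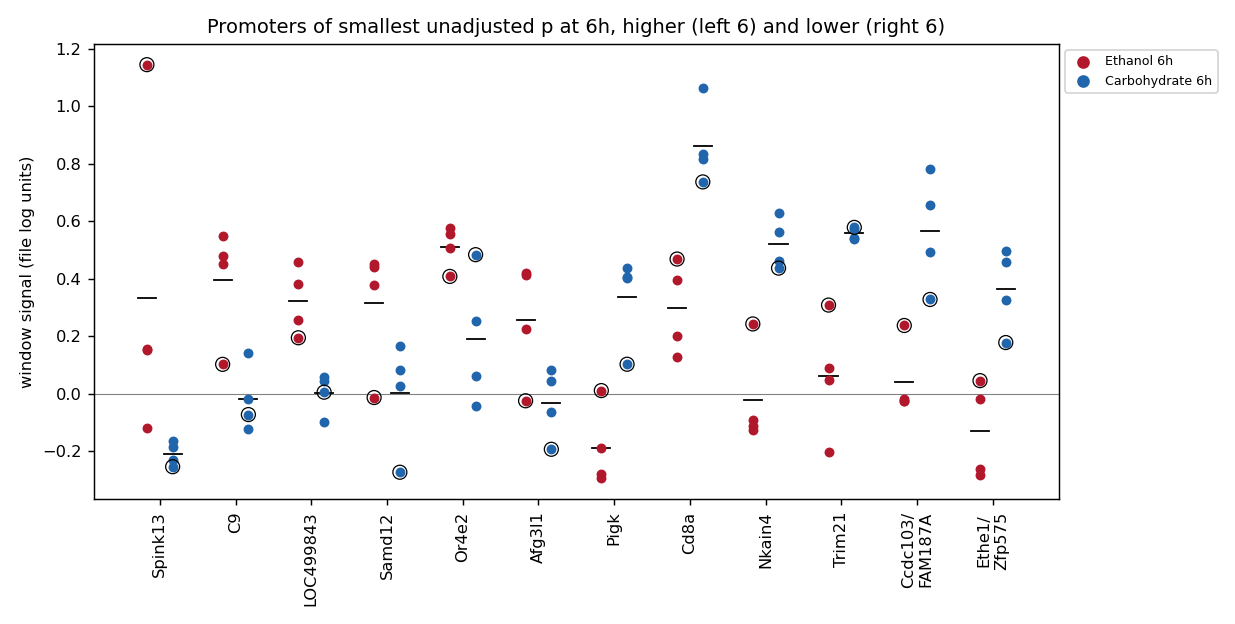
Window signal in log units at the 12 promoters of smallest unadjusted p (6 higher on the left, 6 lower on the right), with Ethanol 6h left of Carbohydrate 6h at each. Points are arrays, bars group means, and circles mark Ethanol replicate 3 and Carbohydrate replicate 1. All 6 lower promoters show separate groups, while Spink13 is carried by 1 circled Ethanol array.

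Class I histocompatibility promoters were lower in ethanol livers as a family. Class I molecules present peptides to CD8 T cells, and their promoters are a textbook target of NF-kB through a kappa B element upstream of the start. The 15 promoters of the rat RT1-A and RT1-CE genes were chosen after their values had been seen, so only counts and values are given. All 15 had a negative difference, from -0.49 to -0.03, with a median of -0.25, against -0.11 over all promoters. Of the 15, 6 had an unadjusted p under 0.05, against 10.6% of all promoters, and 6 had no overlap between the diets, against 9.21%. With the block of neighbouring animal numbers 6 were called (against 7.36% of all promoters), and in the third run alone 5 (against 7.13%). In the third run with whole-region means 9 were called lower, against 1.12% of all promoters. In the fit of all arrays 0 of the 15 were called with windows, whole-region means, scaled arrays or quantile normalization. Those fits called no promoter at all. In the third run with scaled arrays 0 of the 15 were called, where 25 of 14540 promoters were. The genes are near-identical copies, so probes may pick up DNA of several of them and the 15 values are not independent.

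The promoters of 4 members are shown, from RefSeq on GRCr8, as examples with and without the kappa B consensus. They span 250 bases before to 50 after the start. RT1-CE10 lies at chr20:3384930-3385229 (minus strand), RT1-A2 at chr20:4872621-4872920 (plus), RT1-CE16 at chr20:3265394-3265693 (minus) and RT1-CE12 at chr20:3347176-3347475 (minus). Capitals mark the kappa B consensus, searched on both strands, where overlapping matches were joined.
RT1-CE10: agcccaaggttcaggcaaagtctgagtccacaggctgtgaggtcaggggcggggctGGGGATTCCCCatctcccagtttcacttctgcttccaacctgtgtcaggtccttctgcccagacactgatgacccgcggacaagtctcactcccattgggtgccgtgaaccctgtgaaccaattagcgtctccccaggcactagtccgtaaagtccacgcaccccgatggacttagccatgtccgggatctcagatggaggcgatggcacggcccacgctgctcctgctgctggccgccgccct
RT1-A2: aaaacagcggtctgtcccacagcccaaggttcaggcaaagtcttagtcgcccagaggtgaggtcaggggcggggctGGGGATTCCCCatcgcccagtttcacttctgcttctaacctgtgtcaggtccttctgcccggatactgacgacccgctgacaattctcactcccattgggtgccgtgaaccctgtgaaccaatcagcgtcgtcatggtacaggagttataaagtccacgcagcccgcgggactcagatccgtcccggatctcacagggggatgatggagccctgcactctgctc
RT1-CE16: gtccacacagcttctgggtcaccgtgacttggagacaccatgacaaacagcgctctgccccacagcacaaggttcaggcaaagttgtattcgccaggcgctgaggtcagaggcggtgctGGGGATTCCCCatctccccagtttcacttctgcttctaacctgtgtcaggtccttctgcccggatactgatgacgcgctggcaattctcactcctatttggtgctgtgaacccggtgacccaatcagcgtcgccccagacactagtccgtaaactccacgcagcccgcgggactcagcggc
RT1-CE12: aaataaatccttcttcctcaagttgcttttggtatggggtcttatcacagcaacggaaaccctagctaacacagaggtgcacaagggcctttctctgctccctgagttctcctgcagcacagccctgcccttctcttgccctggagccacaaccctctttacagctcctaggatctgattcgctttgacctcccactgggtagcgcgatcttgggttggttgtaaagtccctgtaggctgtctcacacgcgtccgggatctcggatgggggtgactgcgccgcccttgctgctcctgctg

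Of the 15 class I promoters, 13 had a RefSeq promoter, and 9 of these (69.2%) held the kappa B consensus, against 4.16% of all RefSeq promoters. In the 3 shown with a match the letters are the same, and they stand at -194 in RT1-CE10, -174 in RT1-A2 and -131 in RT1-CE16, counted from the start. RT1-CE12 has no match in these 300 bases. None of the 13 held the interferon element. The windows that gave the signal were centred at -4054 to -508 bp from the starts, outside the printed stretch, so the values below do not measure these letters.

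RT1-CE10 (window at chr20:3465752-3466177 in the files) had -0.01, -0.03, 0.30 and 0.01 log units in Ethanol 6h, against 0.57, 0.57, 0.50 and 0.57 in Carbohydrate 6h, a difference of -0.49 ± 0.13 (SE, n = 4 each). Ethanol replicate 3 was the highest of its group here, still below all Carbohydrate arrays. The promoter shared by RT1-CE7 and Rt1.aa had 0.03, 0.13, 0.21 and 0.19, against 0.62, 0.53, 0.71 and 0.62 (difference -0.48 ± 0.13, SE, n = 4 each). Both were among the 12 calls of the 8 arrays fitted alone. RT1-A2, a classical class I gene, had 0.15, 0.19, 0.38 and 0.26, against 0.58, 0.59, 0.55 and 0.47 (difference -0.31 ± 0.13, SE, n = 4 each). RT1-CE16 had 0.26, 0.29, 0.34 and 0.38, against 0.39, 0.74, 0.67 and 0.73, so that Carbohydrate replicate 1 was nearly level with the Ethanol arrays. At the other end, the promoter of RT1-CE12 and RT1-CE14 had 0.58, 0.49, 0.79 and 0.73 in Ethanol 6h and 0.71, 0.46, 0.64 and 0.91 in Carbohydrate 6h. Those groups overlapped throughout (difference -0.03 ± 0.14, SE, n = 4 each).

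The median over the 15 promoters was 0.26, 0.31, 0.52 and 0.38 log units on the Ethanol arrays, against 0.57, 0.57, 0.64 and 0.65 on the Carbohydrate arrays. Ethanol replicate 3 was the nearest to the Carbohydrate arrays. The family was chosen after its values on these arrays had been seen, so its values under other measures of the same arrays are a description. With whole-region means the class I median difference was -0.15, against 0.00 over all promoters, and with arrays scaled to the same spread it was -0.15, against -0.06. It was smaller with means around the listed start, -0.06 against -0.01. At least 14 of 15 differences were negative under every alternative, apart from the deposited direction, which uses other windows and was not tabulated for this family. In these, 1 turned positive with slide as a fixed term, scaling, quantile normalization, means around the start, without Carbohydrate replicate 4, without Ethanol replicate 2 and on the slide with both diets. Listed peaks went the same way at most members: RT1-CE10, RT1-A2, RT1-A1 and RT1-CE15 each had a peak on 0 of 4 Ethanol arrays and 3 of 4 Carbohydrate arrays. RT1-CE2 was an exception, with 4 Ethanol and 3 Carbohydrate arrays. Of 26 promoters of lymphocyte and neutrophil markers 23 were lower, with a median of -0.12, and their part in these values was not tested.

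**Figure D4:**
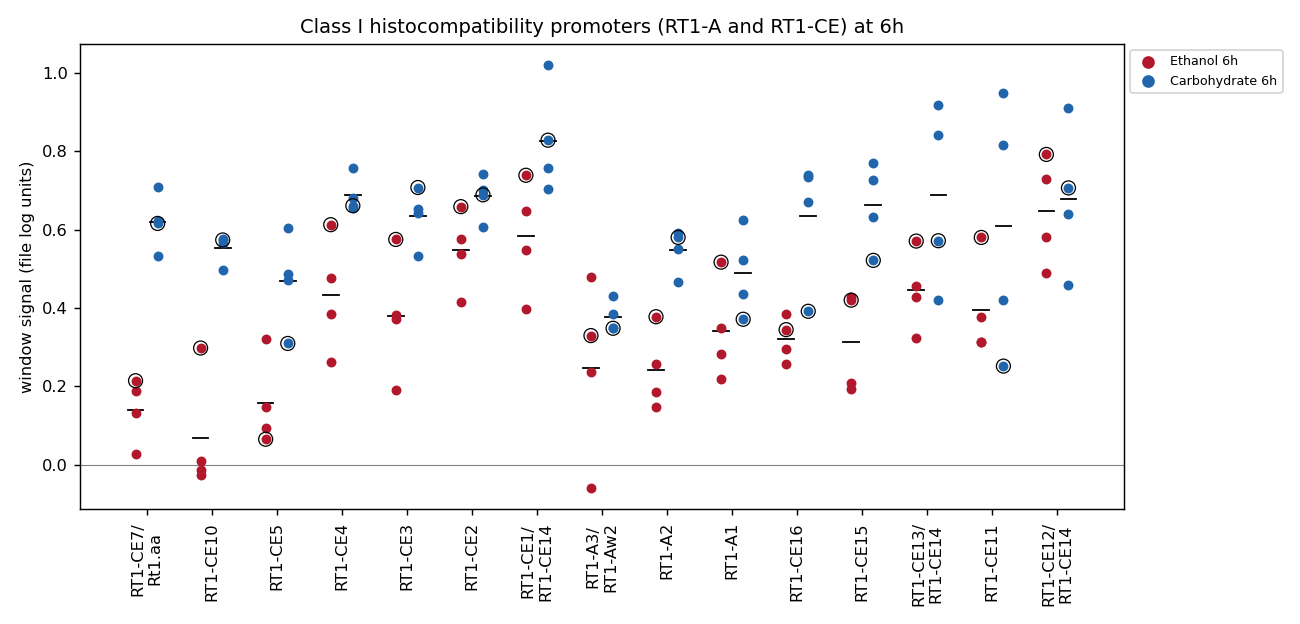
Window signal in log units at the 15 class I promoters, Ethanol 6h left of Carbohydrate 6h at each. Points are arrays, bars group means, and circles mark Ethanol replicate 3 and Carbohydrate replicate 1. Group means are lower in Ethanol at all 15, least at RT1-CE12/RT1-CE14, and 1 of the 15 turns positive with arrays scaled to 1 spread.

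By the window measure, few promoters with an unadjusted p under 0.05 had more p65 signal in ethanol livers, 48 against 1542 with less, and region means gave the near balance stated above. The 6 of smallest p were all called with the block, and all but Samd12 and Afg3l1 in the third run. C9 encodes the last component of the complement pore and is made by hepatocytes. Its window (chr2:55743706-55744106, 823 bp after the start) had 0.45, 0.48, 0.10 and 0.55 log units in Ethanol 6h, against -0.07, -0.12, 0.14 and -0.02 in Carbohydrate 6h. Only Ethanol replicate 3 overlapped the Carbohydrate arrays (difference 0.41 ± 0.14, SE, n = 4 each; adjusted p = 0.429 in limma). C9 had an adjusted p of 0.0273 in the third run (limma) and had a listed peak on 2 Ethanol arrays and 0 Carbohydrate arrays. Spink13, a serine protease inhibitor, had 0.15, 0.16, 1.14 and -0.12, against -0.25, -0.19, -0.23 and -0.16. Its difference of 0.54 ± 0.18 (SE, n = 4 each) rested largely on Ethanol replicate 3 and was 0.27 without it.

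The odorant receptor gene Or4e2 had 0.55, 0.51, 0.41 and 0.58 log units in Ethanol 6h, against 0.48, -0.04, 0.06 and 0.25 in Carbohydrate 6h. Carbohydrate replicate 1 was the array that overlapped (difference 0.32 ± 0.12, SE, n = 4 each). LOC499843 differed by 0.32 ± 0.11, Samd12 by 0.31 ± 0.12 and Afg3l1, a mitochondrial protease subunit, by 0.29 ± 0.11 (SE, n = 4 each). Ethanol replicate 3 overlapped the Carbohydrate arrays at Samd12 and Afg3l1 and not at LOC499843.

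The known regulators and targets of NF-kB were mostly lower, as were most promoters, and none passed the limma test over all arrays. List medians were near that of all promoters, except for survival and stress targets. Among inhibitors and subunits, 7 of 8 promoters were lower in Ethanol 6h (87.5%, against 80.3% of all promoters). Their median difference was -0.11, as for all promoters, and 1 had an unadjusted p under 0.05 (12.5%, against 10.6%). Nfkbia encodes IkB-alpha, the inhibitor that p65 induces to end its own activity. It had 0.07, 0.06, 0.35 and 0.23 log units in Ethanol 6h, against 0.34, 0.61, 0.52 and 0.61 in Carbohydrate 6h (difference -0.34 ± 0.17, SE, n = 4 each). Ethanol replicate 3 and Carbohydrate replicate 1 met in the middle. Nfkbia was the only promoter of this list called in the third run (limma adjusted p = 0.0228) and with the block (limma adjusted p = 0.0268). That is 12.5% of the list, against 7.13% and 7.36% of all promoters. Nfkbib, a second inhibitor of the family, shares a promoter region with Sirt2 and differed by -0.29 ± 0.14 (SE, n = 4 each).

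Of 20 promoters of cytokines, chemokines and adhesion molecules, 18 were lower (median -0.08), where 80.3% of all promoters were. An unadjusted p under 0.05 was found for 4 (20.0%, against 10.6% of all): Ccl4, Cxcl1, Vcam1 and the shared promoter of Art3 and Cxcl9. Cxcl9 encodes an interferon-induced T cell attractant. Its window (chr14:17283223-17283643) had 0.05, 0.10, 0.13 and 0.27 log units in Ethanol 6h, against 0.81, 0.40, 0.43 and 0.52 in Carbohydrate 6h, with no overlap (difference -0.40 ± 0.13, SE, n = 4 each). Cxcl1, a neutrophil attractant, had -0.06, 0.14, 0.40 and 0.28, against 0.49, 0.50, 0.56 and 0.60 (difference -0.35 ± 0.15, SE, n = 4 each). These 2 promoters (10.0% of the list) were called in the third run and with the block, against 7.13% and 7.36% of all promoters. Vcam1, an endothelial adhesion molecule, differed by -0.26 ± 0.12 and Ccl4 by -0.28 ± 0.11 (SE, n = 4 each).

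Survival and stress targets were lower at 14 of 17 promoters (82.4%, against 80.3% of all). Their median was -0.18, against -0.11 over all promoters, and with scaled arrays -0.15, against -0.06. An unadjusted p under 0.05 was found for 3 (17.6%, against 10.6% of all). Sod2, the mitochondrial superoxide dismutase, had 0.46, 0.56, 0.76 and 0.63 log units in Ethanol 6h, against 0.91, 0.83, 0.94 and 1.07 in Carbohydrate 6h. The groups did not overlap (difference -0.33 ± 0.14, SE, n = 4 each). Fth1, ferritin heavy chain, differed by -0.32 ± 0.14 and Hmox1, heme oxygenase, by -0.25 ± 0.10 (SE, n = 4 each). In the third run 4 of the 17 were called lower (23.5%, against 7.13% of all): Fth1, Hmox1, Irf1, an interferon-responsive transcription factor, and the shared promoter of Flot1 and Ier3. Fth1 and Irf1 were also called with the block (2 of 17, against 7.36% of all). With whole-region means the median of this list was 0.02, so its direction turned with the measure. Of 20 promoters of NF-kB signalling proteins 14 were lower (median -0.11), and none was called in the third run or with the block. Cyld, a deubiquitinase that restrains the pathway, differed by -0.30 ± 0.13 (SE, n = 4 each).

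The median level at inhibitors and subunits and at survival genes was below that over all promoters in both diets. The median for cytokines was nearly level with it. The median window signal was 0.14 for inhibitors and subunits, 0.18 for cytokines and 0.08 for survival genes in Ethanol 6h, against 0.22, 0.29 and 0.25 in Carbohydrate 6h. Over all promoters it was 0.19 in Ethanol 6h and 0.30 in Carbohydrate 6h.

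Among early response genes, 24 of 32 promoters were lower (75.0%, against 80.3% of all; median -0.13) and 4 had an unadjusted p under 0.05 (12.5%, against 10.6%). The third run gave 5 lower calls (Fos, Ccn1, Ccn2, Egr3 and Zfp36l2), which is 15.6% against 7.13% of all. The block gave 4 of 32 lower (against 7.36% of all), the same without Ccn2. Fos, a subunit of the AP-1 factor, had -0.08, -0.25, -0.15 and -0.04 log units in Ethanol 6h, against 0.17, 0.28, 0.30 and 0.08 in Carbohydrate 6h, with no overlap (difference -0.33 ± 0.14, SE, n = 4 each). Ccn1, a matrix-associated signal, differed by -0.40 ± 0.16 and Egr3, a zinc finger factor, by -0.40 ± 0.15 (SE, n = 4 each). Egr1, also a zinc finger factor, ran the other way. It had -0.06, -0.08, -0.62 and -0.17, against -0.50, -0.40, -0.60 and -0.71 (difference 0.32 ± 0.24, SE, n = 4 each). Ethanol replicate 3 was at the Carbohydrate level, and Egr1 was called higher with the block (limma adjusted p = 0.0437) and not in the third run (adjusted p = 0.0961). In the IL-6 and JAK-STAT pathway 21 of 25 promoters were lower (median -0.08). Il10rb, the shared receptor chain for interleukin 10, had 0.40, 0.02, 0.52 and 0.44 in Ethanol 6h, against 0.82, 0.72, 0.61 and 0.68 in Carbohydrate 6h (difference -0.36 ± 0.13, SE, n = 4 each). It was called with the block (1 of 25, against 7.36% of all) and not in the third run.

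Acute phase and plasma protein promoters, the secreted output of hepatocytes, were lower at 23 of 30 (76.7%, against 80.3% of all; median -0.14). Plg, plasminogen, had 0.19, 0.03, 0.32 and 0.32 log units in Ethanol 6h, against 0.43, 0.55, 0.50 and 0.86 in Carbohydrate 6h (difference -0.37 ± 0.15, SE, n = 4 each). F2, prothrombin, differed by -0.28 ± 0.12 (SE, n = 4 each). Plg was called in the third run and with the block, Fga, fibrinogen alpha, in the third run and F2 with the block. That is 2 of 30 in the third run (6.67%, against 7.13% of all) and 2 of 30 with the block (against 7.36%). Cell cycle and replication promoters were lower at 29 of 32 (90.6%, against 80.3% of all; median -0.11), with 2 at an unadjusted p under 0.05 (6.25%, against 10.6%). Cdc6, which loads the replicative helicase, had 0.03, -0.14, -0.01 and 0.08 in Ethanol 6h, against 0.32, 0.18, 0.49 and 0.32 in Carbohydrate 6h, with no overlap (difference -0.34 ± 0.11, SE, n = 4 each). Bub1, a mitotic checkpoint kinase, had 0.24, 0.30, 0.70 and 0.46, against 0.84, 0.74, 0.67 and 0.78. Cdkn1c, an inhibitor of the cell cycle, differed by -0.31 ± 0.16 (SE, n = 4 each). Cdc6, Bub1 and Cdkn1c were called with the block (3 of 32, against 7.36% of all). In the third run Cdc6, Cdkn1c, Ap4m1/Mcm7 and E2f3 were called (4 of 32, 12.5% against 7.13% of all). Of 31 cell cycle genes in the peak lists, 4 counted as bound in Ethanol 6h (12.9%, against 30.2% of all genes) and 14 in Carbohydrate 6h (45.2%, against 39.6%), bound meaning a peak on at least 2 of 4 arrays. These counts were singled out after they had been seen. More genes were bound in Ethanol 6h among lipid genes (9 against 5), liver transcription factors (7 against 5) and stellate cell markers (8 against 6). The remaining lists had fewer bound in Ethanol 6h, as had all genes.

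Growth factor genes of regeneration were lower at 28 of 36 promoters (77.8%, against 80.3% of all; median -0.10). Met, the hepatocyte growth factor receptor, had 0.30, 0.08, 0.50 and 0.41 log units in Ethanol 6h, against 0.43, 0.90, 0.78 and 0.57 in Carbohydrate 6h (difference -0.35 ± 0.12, SE, n = 4 each). Carbohydrate replicate 1 was the array that overlapped. Tgfa, a ligand of the EGF receptor, had 0.18, -0.01, 0.05 and 0.09, against 0.29, 0.38, 0.33 and 0.46, with no overlap (difference -0.29 ± 0.12, SE, n = 4 each). Both were called in the third run and with the block (2 of 36, 5.56%, against 7.13% and 7.36% of all). TGF-beta and matrix genes had a median of -0.06, and Ift43/Tgfb3 differed by -0.27 ± 0.13 (SE, n = 4 each). Apoptosis genes had a median of -0.12, with Aup1/Dqx1/Htra2 at -0.27 ± 0.12 (SE, n = 4 each). The third run called 3 of 27 lower (11.1%, against 7.13% of all), Bax, Bak1/Ggnbp1 and Aup1/Dqx1/Htra2, and the block none. Liver transcription factors had a median of -0.10 and none at an unadjusted p under 0.05. Hnf4a, the master regulator of hepatocytes, had the smallest p of that list (difference -0.27 ± 0.15, SE, n = 4 each).

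Genes of alcohol and xenobiotic metabolism were lower at 25 of 34 promoters (73.5%, against 80.3% of all; median -0.13), with 3 lower (8.82%, against 10.6%) and 1 higher at an unadjusted p under 0.05. Cyp2e1, the ethanol-oxidising cytochrome, had -0.07, -0.10, 0.30 and 0.18 log units in Ethanol 6h, against 0.23, 0.50, 0.36 and 0.44 in Carbohydrate 6h (difference -0.31 ± 0.12, SE, n = 4 each). Cyp2e1 and Cyp1a1 were called in the third run and with the block, and Dnajb3/Ugt1a1 in the third run. That is 3 of 34 lower in the third run (8.82%, against 7.13% of all) and 2 of 34 with the block (against 7.36%). Ephx1, microsomal epoxide hydrolase, had 0.46, 0.45, 0.18 and 0.48, against 0.14, -0.04, 0.11 and 0.30, the higher member (difference 0.27 ± 0.12, SE, n = 4 each). Mgst1, a membrane glutathione transferase, was called higher with the block (difference 0.34 ± 0.17, SE, n = 4 each; limma adjusted p = 0.0204) and not in the third run (adjusted p = 0.104).

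Oxidative stress genes had a median of -0.10. Hspa5, a chaperone of the endoplasmic reticulum, differed by -0.36 ± 0.11, and the glutathione peroxidases Gpx2 and Gpx3 by -0.30 ± 0.13 and -0.31 ± 0.15 (SE, n = 4 each). These 3 were called in the third run and with the block, Ucp2 and Txnrd1 in the third run and Gpx1 with the block. That is 5 of 30 in the third run (16.7%, against 7.13% of all) and 4 of 30 with the block (against 7.36%). Lipid genes had the smallest median, -0.05. Srebf2, the regulator of cholesterol synthesis, nevertheless had 0.05, 0.05, 0.20 and -0.03 log units in Ethanol 6h, against 0.30, 0.49, 0.42 and 0.54 in Carbohydrate 6h, with no overlap (difference -0.37 ± 0.12, SE, n = 4 each). It was the only 1 of 40 lipid promoters called in the third run (2.5%, against 7.13% of all) and with the block (against 7.36%). Glucose and amino acid genes had a median of -0.11, with Ahcy, an enzyme of the methionine cycle, at -0.29 ± 0.12 (SE, n = 4 each). Ahcy and Gpt/Mfsd3 were called in the third run and with the block (2 of 34, 5.88%, against 7.13% and 7.36% of all). Lists included for comparison shifted too. Ribosome and translation genes were lower at 44 of 47 promoters (median -0.11; Rpl32 at -0.40 ± 0.11), and testis and neuronal genes at 35 of 41 (median -0.14; Snap25 at -0.29 ± 0.10; SE, n = 4 each). An unadjusted p under 0.05 was found for 6 of the 47 (12.8%) and 6 of the 41 (14.6%), against 10.6% of all. Called lower in the third run were 5 (10.6%) and 3 (7.32%), against 7.13% of all. With the block 4 and 7 were called lower, against 7.36% of all.

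Marker genes of liver cell types shared the general shift. Median differences were -0.16 for 16 hepatocyte promoters, -0.10 for 12 of Kupffer cells and macrophages and -0.14 for 17 of stellate cells. They were -0.17 for 11 of sinusoidal endothelium, -0.11 for 11 of cholangiocytes and -0.12 for 26 of lymphocytes and neutrophils. Promoters with an unadjusted p under 0.05, all lower in Ethanol, numbered 1, 0, 2, 2, 3 and 3 in this order. As shares these are 6.25%, 0%, 11.8%, 18.2%, 27.3% and 11.5%, against 10.6% of all promoters. Those of lymphocytes were Cd8a, Cd8b and Cd79b. Of these Cd8a and Cd8b were called in the third run and with the block (2 of 26, 7.69%, against 7.13% and 7.36% of all). Further marker calls were Cyp2e1 in both fits, Lyve1 in the third run, and Egfl7 and Hand2 with the block. Cd14, a macrophage receptor for endotoxin, differed by -0.20 ± 0.10, Col1a1 by -0.22 ± 0.09 and Egfl7, an endothelial signal, by -0.39 ± 0.12 (SE, n = 4 each). Krt19, the bile duct keratin, had 0.13, 0.12, 0.11 and 0.15 log units in Ethanol 6h, against 0.38, 0.37, 0.37 and 0.41 in Carbohydrate 6h. The arrays of each diet lay close together, but the direction turned with whole-region means (0.07). Binding at a marker's promoter does not measure how many cells of that type were present.

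**Figure D5:**
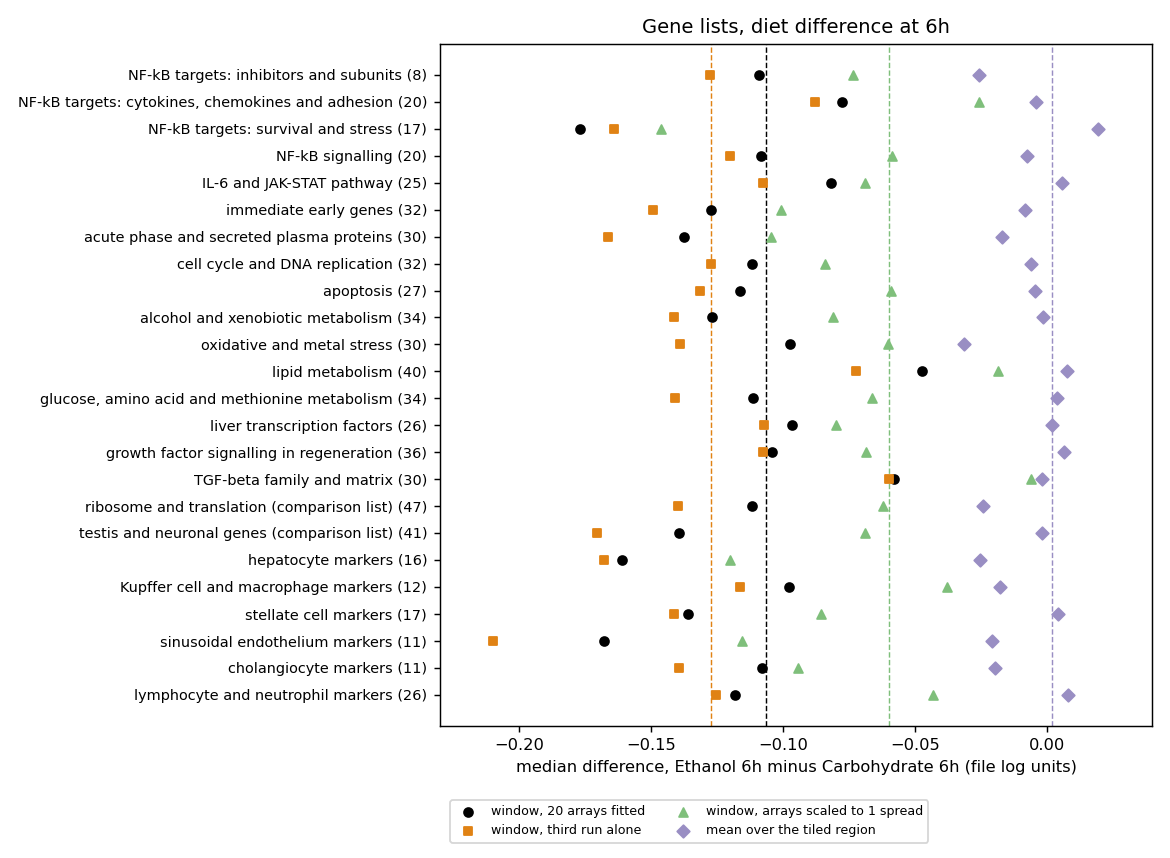
Median difference (Ethanol 6h minus Carbohydrate 6h, log units) of the 24 gene lists, number of promoters in brackets. Circles use windows in the fit of 20 arrays, squares the third run alone, triangles arrays scaled to 1 spread and diamonds whole-region means, and the dashed lines give the medians of all promoters. The lists lie close to those lines, and the diamonds lie near 0.

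Gene by gene, most genes bound in ethanol livers were also bound in carbohydrate livers. Peaks were called per array with the listed false discovery rate below 0.2, and 14355 genes had a peak on some array of the series. In Ethanol 6h 4341 genes (30.2%) counted as bound and in Carbohydrate 6h 5688 (39.6%). Bound in both were 3322, which is 76.5% of the Ethanol genes and 58.4% of the Carbohydrate genes. All 8 arrays had a peak at 584 genes (4.07%). Among those of highest signal were Sult1c2, a sulfotransferase, and Pcdha6, a protocadherin. At Sult1c2 the peak span had 0.45, 0.50, 0.63 and 0.41 log units in Ethanol 6h, against 0.62, 0.58, 0.78 and 0.83 in Carbohydrate 6h. Vapb, a membrane contact protein, ran the other way with 0.90, 0.80, 0.38 and 0.86, against 0.51, 0.63, 0.50 and 0.53, Ethanol replicate 3 alone lying below the Carbohydrate arrays.

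Genes with a peak on all arrays of 1 diet and none of the other were few. A peak on 4 of 4 Ethanol arrays and 0 of 4 Carbohydrate arrays was listed for 10 genes (0.0697%). They were Lefty2, Samd5, Dnmt1, Vcsa2, Or8c10, Or5ak4, Or5k8, Or5p68, Or1j21 and Vom2r9, of which 6 encode odorant or vomeronasal receptors, against 9.39% of all genes in the peak lists and 48.3% of those with a peak on all 8 arrays. Lefty2, a secreted antagonist of Nodal, had 0.40, 0.28, 0.06 and 0.30 log units over its peak span in Ethanol 6h, against 0.12, 0.06, 0.02 and -0.14 in Carbohydrate 6h. Dnmt1, the maintenance DNA methyltransferase, had 0.57, 0.48, 0.35 and 0.43, against 0.22, 0.46, 0.22 and 0.22. Ethanol replicate 3 at Lefty2 and Carbohydrate replicate 2 at Dnmt1 overlapped the other diet. The presence of a peak chose these genes, so the values are a description.

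The reverse, 0 of 4 Ethanol arrays and 4 of 4 Carbohydrate arrays, was listed for 49 genes (0.341%). The 10 with the widest difference in promoter window signal were Grwd1, Gdap2, Fbxw2, Nsun7, Tacc3, Or10am5, P42pop, C15h14orf93, Parvg and Insc. Grwd1, a ribosome assembly and replication factor, had 0.12, 0.09, 0.27 and 0.22 log units over its peak span in Ethanol 6h, against 0.36, 0.63, 0.34 and 0.54 in Carbohydrate 6h. Fbxw2, a substrate receptor of a ubiquitin ligase, had -0.06, 0.24, 0.42 and 0.32, against 0.57, 0.46, 0.56 and 0.70. Tacc3, a spindle protein, had 0.08, 0.02, 0.20 and 0.11, against 0.31, 0.38, 0.28 and 0.41. In all 3 the groups did not overlap, and the presence of a peak had chosen these genes too. Over peak spans the order was another, the widest differences being at Nsun7 (-0.40) and Gadd45a (-0.37), a growth arrest gene. The further genes named of the 49, chosen like Gadd45a after their values had been seen, are Tgfa, Cdkn1c, Vegfc, a lymphatic growth factor, Il4, a T helper cytokine, Mt1, metallothionein, and Gpx1.

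At all 49 genes the mean signal over the span was lower in Ethanol, with differences from -0.397 to -0.0867 log units. Peaks on Carbohydrate arrays alone chose these genes, so lower Ethanol values largely follow from that choice and are a description. The spans are not all separate sites, since Cilk1 and Fbxo9 share a span, as do Lman2 and Rgs14. The median over the 49 was 0.19 in Ethanol 6h and 0.42 in Carbohydrate 6h. Without Ethanol replicate 3 and Carbohydrate replicate 1 the counts were 71 and 508 genes in place of 10 and 49, and at a false discovery rate of at most 0.05 they were 5 and 15. Leaving out 1 array always asks for a peak on fewer arrays. The counts were then 52 and 194 without Ethanol replicate 3, 24 and 84 without Ethanol replicate 4, 21 and 239 without Carbohydrate replicate 1 and 16 and 76 without Carbohydrate replicate 3. Without Ethanol replicate 1, Ethanol replicate 2, Carbohydrate replicate 2 or Carbohydrate replicate 4 the first count was 23 to 27 and the other 58 to 70.

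The diet difference at 6h was set against those at 1h and 0h, which had no called promoter in this fit either. With slide as a fixed term 85 promoters were called at 1h and 2061 at 0h, and with run as a term 47 at 1h and 0 at 0h. The interaction tests gave 0 of 14540 calls (0.0%) for 6h minus 1h, with 142 positive and 1902 negative promoters at an unadjusted p under 0.05. For 6h minus 0h they gave 0 of 14540 calls (0.0%), with 68 positive and 1886 negative. The smallest adjusted p-values in limma were 0.192 and 0.293. Other fits changed these counts. For 6h minus 1h, run as a term gave 224 calls (11 positive, 213 negative), slide as a fixed term 22 and array weights 740. For 6h minus 0h, slide as a fixed term gave 862 (94 positive, 768 negative) and array weights 2259. With animal number as a random block, for the animals with an array at both times, both counts were 0. At 1h the unadjusted counts ran the other way, with 881 promoters higher in Ethanol and 308 lower, and at 0h 914 and 192.

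Cdc40, a splicing factor, shares a promoter with Wasf1, an actin regulator, and had the smallest p among named promoters for 6h minus 1h. At 6h it had 0.05, 0.00, 0.06 and 0.35 log units in Ethanol, against 0.36, 0.38, 0.24 and 0.34 in Carbohydrate. At 1h it had 0.43, 0.68 and 0.57 in Ethanol, against -0.04, -0.10 and 0.04 in Carbohydrate. The difference was thus 0.59 at 1h and -0.21 at 6h, an interaction of -0.80 ± 0.16 (SE; limma adjusted p = 0.192). Sugt1, a co-chaperone of HSP90, followed the same pattern, with 0.57 at 1h and -0.34 at 6h (interaction -0.91 ± 0.19, SE). In the other direction, Semg1, a seminal fluid protein, differed by -0.69 at 1h and 0.17 at 6h, and Ephx1 by -0.42 at 1h and 0.27 at 6h. The interaction was -0.75 ± 0.17 at Otud6b and -0.84 ± 0.19 at Fam72a/Srgap2, and 0.95 ± 0.28 at Spink13 and 0.50 ± 0.15 at Serpind1, the gene of heparin cofactor II (SE).

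For 6h minus 0h, Trim21 differed by 0.29 at 0h and -0.50 at 6h (interaction -0.79 ± 0.18, SE; limma adjusted p = 0.293). The 0h arrays gave 0.39, 0.08 and 0.08 log units in Ethanol, against -0.28, -0.10 and 0.06 in Carbohydrate. The shared promoter of Cfap119 and Rnf40, a histone H2B ubiquitin ligase, differed by 0.65 at 0h and -0.43 at 6h (interaction -1.09 ± 0.24, SE). Sirt1, a deacetylase that acts on p65, differed by -0.21 at 0h and 0.24 at 6h (interaction 0.45 ± 0.16, SE). At 6h Sirt1 had 0.27, 0.36, 0.25 and 0.24 in Ethanol, against 0.06, -0.03, -0.06 and 0.17 in Carbohydrate, with no overlap. The others of smallest p were Enthd1/Grap2 (interaction -0.75 ± 0.18) and Pbld1 (-1.02 ± 0.24), and Nfyb (0.66 ± 0.21), Purb (0.63 ± 0.22) and Coq10b (0.48 ± 0.17; SE). None of these interactions passed the adjusted threshold in the fit of all arrays.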

How the data were processed

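Per the channel labels, Cy5 held p65 ChIP DNA and Cy3 input, while the labelling text names IgG-precipitated DNA, so the reference is not settled. All 8 source names say 0h, so titles set the time. The authors' deposited table gave 1 value per probe (713735) and array, taken as a log2 ratio although neither base nor direction is stated. Peaks lay at negative deposited values, so values were multiplied by -1 and centred on each array's median, without scaling. The authors' deposited peak lists hold, for each peak, the score and the q-value (false discovery rate, at most 0.19961), per the file headers. Build, caller and normalization are not given in the sources used here.

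Probes were joined across gaps of up to 1000 bp. The 500 bp window (at least 4 probes) of highest mean over 20 arrays was kept for 14540 of 14723 regions. Names came from the deposited accessions, 13670 of 14678 matched to RefSeq (GRCr8), leaving 13285 promoters with a name, 1148 of them with several genes. The test was limma 3.58.1 (R 4.3.3; lmFit, eBayes with trend, two-sided), 6 group means in 1 fit, p-values adjusted by Benjamini-Hochberg over all 14540 promoters, threshold 0.05. Array values had exact permutation tests over 70 splits (scipy 1.17.1 in Python 3.11.15, with numpy 2.4.6, pandas 2.3.3 and matplotlib 3.10.9). On simulated data for this comparison with 14540 promoters, 200 of them changed, the fit recovered 30% of changes of 0.4 and 89% of 0.8, with 13 false calls. Those data had independent normal values per promoter, with no array-wide shift and no difference in spread between arrays. The rates may therefore not hold for the real arrays. The relation to GC content was not run, since 69.39% of promoters had a sequence and 80% were required. The design text speaks of biological replicates, and the 8 animal numbers differ. The limma p-values and every SE given with a difference rest on the spread within groups over all 20 arrays, other times included. The median SE was 0.123 in that fit and 0.098 with the 8 arrays of 6h alone. Permutation p-values rest on arrays of 6h alone. In both cases the spread between arrays may be technical. The 8 arrays limit the precision.

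Members, lists and tests were chosen with earlier results of these data known. Named promoters were the 12 largest changes that passed in each direction or, where none passed, the 6 of smallest p. In each of 24 lists the promoter of smallest p was named where none passed. Up to 10 genes with peaks in 1 diet alone, the 6 strongest with peaks on all arrays and the 4 smallest interaction p-values per direction were taken too. Other list members named had an unadjusted p under 0.05 or a call in an alternative, and were chosen after their values were seen.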

Additional observations from a re-analysis of the deposited data

Results flagged for a closer look

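Of 76 groups of 4 arrays checked at named promoters and array measures, 5 held an array far from the other 3, and about 1 in 20 groups is marked by chance. Ethanol replicate 3 stood apart at Samd12 (-0.0137 log units, below the other Ethanol arrays), at Nkain4 (0.242, above them) and at Ccdc103/FAM187A (0.237, above them). Carbohydrate replicate 1 stood apart at Pigk (0.102) and at Rpl32 (0.519), below the other Carbohydrate arrays in both. At each of these 5 promoters the marked array lay on the side of the other diet. They are the arrays of the closest pair of all, r = 0.82.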

How the results depend on the processing

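The count of 0 called promoters held in limma with run as a term, slide as a random block or a fixed term, animal number as a random block, whole-region means, scaling to 1 spread, quantile normalization, window medians, the deposited direction, means around the start, and without each array in turn or both that stand apart. It became 12 (all lower) with the 8 arrays alone, 2751 (103 higher, 2648 lower) with array weights (a fit that stopped short of its convergence tolerance), 1048 (12 and 1036) in the third run, 25 (1 and 24) there after scaling and 518 (355 and 163) there with region means. Replicate numbers did not pair the samples: same-numbered deviations correlated at -0.20, -0.12, -0.22 and 0.26, and the replicate block gave 21 calls, all lower. Neighbouring animal numbers gave 1101 (31 and 1070), with correlations of 0.047 to 0.33, against -0.37 to 0.16 in the other 12 pairings, so a pairing is not established. Unadjusted counts without 1 array ranged over 600 to 2071 lower and 22 to 118 higher. For 6h minus 1h, run as a term gave 224 calls, slide as a fixed term 22 and array weights 740, and for 6h minus 0h the last 2 gave 862 and 2259. At 34 named promoters 771 values kept side and direction, 98 passed only in an alternative, and 15 turned sign. With means around the start these were LOC499843 -0.0271, Nkain4 5.15e-05, Ethe1/Zfp575 0.0015, Nfkbib/Sirt2 0.000352, Art3/Cxcl9 0.0383, Sod2 0.0100, Egr3 0.0382, Cdc6 0.0169, Srebf2 0.0257, Ahcy 0.0795, Rpl32 0.0238 and Krt19 0.0931. Krt19 was 0.0710 with region means and 0.0632 with these in the third run, where Afg3l1 was -0.0040. The share of peaks near starts differed by 0.396 points, by -2.49 at 1000 bp, by -0.247 at the stricter threshold and by -0.255 to 1.5 without 1 array. Probe SD differed by -0.0887 to -0.0601 without 1 array. Genes with peaks in Ethanol alone numbered 5 at the stricter threshold, 16 to 52 without 1 array and 71 without both; in Carbohydrate alone, 15, 58 to 239 and 508. The fits of the third run, of animal numbers, around the start and without both arrays, and slide and weights for the interactions, were chosen after seeing the data. The causes were not tested. The GC alternative was not run.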

Other observations

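Odorant and vomeronasal receptor genes, known mainly from the nose, made up 282 of the 584 genes with a peak on all 8 arrays (48.3%), against 9.39% of all genes in the peak lists. Their 1323 promoters had a median window signal of 0.33, 0.33, 0.48 and 0.35 log units on the Ethanol arrays, against 0.49, 0.43, 0.49 and 0.55 on the Carbohydrate arrays. The median difference was -0.12 over windows and 0.06 over whole regions, so its direction turned with the measure. Over whole regions the Ethanol arrays had 0.080, 0.148, 0.159 and 0.056, against 0.135, 0.001, 0.031 and 0.056 on the Carbohydrate arrays. The diets overlapped there, and Carbohydrate replicate 1, the highest of its group, is not in the third run. In the third run with region means they were 125 of the 264 named promoters called higher in Ethanol (47.4%) and 0 of the 149 called lower, against 9.96% of all named promoters. The family was chosen after its values had been seen.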
